A study of Mus musculus with 4 samples.

Results

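Marker-low cells were studied in the homeostasis library of a single-cell RNA-Seq experiment on LSK cells, the Lineage-negative, Sca-1-positive, c-Kit-positive fraction of bone marrow in which stem cells and multipotent progenitors are found. The cells were selected on their own counts of unique molecular identifiers (UMIs, each standing for 1 captured transcript). A cell was kept when it had at least 2921 UMIs, carried 1 hashtag, and had a UMI of under 4 of 9 stem genes (Mecom, Hlf, Procr, Mmrn1, Clec1a, Pdzk1ip1, Fgd5, Gng11 and Esam). It also had to have a UMI of under 2 genes in each of 3 lineage gates, which were neutrophil (Mpo, Elane, Ctsg, Prtn3, Ms4a3), megakaryocyte-erythroid (Pf4, Gata1, Mfsd2b, Car1, Rhag) and lymphoid (Dntt, Il7r, Rag1, Ccr9, Arpp21, Ebf1). Of 16207 cells with 1 hashtag at homeostasis, 4062 met this rule, 2837 of them wild-type and 1225 knockout. Both libraries of the series together held 24569 cells with 1 hashtag and at least that depth.

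The wild-type mice were Sin3B F/F and the knockout mice (Sin3B-/-) were Sin3B F/F crossed to Vav1-iCre, all male, untreated and on a C57BL/6 background. Both genotypes thus carried the floxed alleles and only the knockout carried the Cre, which the Vav1 promoter drives in hematopoietic cells from fetal life on. The age of the mice was not given in the sources used here, and the genotype behind each hashtag is as the methods of the study state it. LSK cells of 2 mice were pooled per genotype, and each pool was stained with its own TotalSeq hashtag antibody and run in the same 10x 3′ library. There is thus 1 pool per genotype, no test across animals is possible, and every interval given is a 95% interval for counting error alone. The second library, from mice of the same genotypes treated with 100 mg/kg 5-fluorouracil (5-FU) 9 days earlier, is set beside it for a few genes, with condition and library not told apart.

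Multipotent progenitors are the cells between the stem cell and the committed progenitors. As textbook background, they are divided by surface proteins into megakaryocyte-erythroid biased, myeloid biased and lymphoid biased subsets, and the lymphoid biased subset is known for high Flt3, a receptor tyrosine kinase that stem cells largely lack. Such progenitors turn on lineage genes at low levels before commitment. Sin3B is a scaffold of a histone deacetylase complex that represses transcription and is known for its part in cell cycle exit.

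Of 23931 barcodes taken as cells at homeostasis, 11579 carried the wild-type hashtag, 4628 the knockout hashtag, 1441 both and 6283 none. Marker-low cells were shallower than the rest, with a median of 5700.5 UMIs against 7632 in the other cells with 1 hashtag. The genotypes were close in depth, with medians of 5647 UMIs and 2518 genes in wild-type and 5804 UMIs and 2513 genes in knockout marker-low cells. Free RNA was measured in 56160 barcodes of 10 to 100 UMIs. The libraries shared 76 cell barcodes.

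The set was low in most lineage genes but not in Prtn3, and only in part low in stem genes. Mecom and Hlf, transcription factors of stem cells, were both detected in 76.5% of marker-low cells. Mecom stood at 758 UMIs per 1000000 UMIs of the pool (CPM) in marker-low cells and 998 CPM in the stem gate (cells with 4 or more of the 9 stem genes), and Hlf at 644 CPM and 731 CPM. The other stem genes were much lower than in the stem gate, with Clec1a at 3.45 CPM against 33.1, Mmrn1, a multimerin, at 19.4 against 98.3, and Esam, an adhesion molecule, at 9.37 against 38.4. All of these genes chose the cells, so the values are a description. Among lineage genes, the neutrophil protease gene Prtn3 was detected broadly, at 345 CPM in marker-low cells, 369 CPM in the stem gate and 258 CPM in free RNA, detected in 77.7% (wild-type) and 77.4% (knockout) of the cells, and it was the gene found in 93.5% of the cells with exactly 1 neutrophil gene. Mpo, myeloperoxidase, stood at 9.96 CPM against 281 CPM in the neutrophil gate. Gata1, the erythroid transcription factor, stood at 4.72 CPM against 74.4 CPM in the megakaryocyte-erythroid gate, and Ebf1, the B-lineage factor, at 1.63 CPM against 190 CPM in the lymphoid gate. Cells with no UMI of any of the 25 gate genes were rare, at 5 wild-type and 2 knockout cells.

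The stem limit cut through a continuous range. With the lineage gates passed, 2142 cells had 3 stem genes and so lay just inside, with a median of 5710.5 UMIs and 1863 CPM of stem gate genes in sum. Just outside lay 2023 cells with 4 stem genes, a median of 5802 UMIs and 2337 CPM. At the neutrophil limit, 3372 cells with 1 gene lay inside and 1733 with 2 genes outside, with medians of 5821 and 7147 UMIs.

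Genes of the LSK sort were present. Kit, the stem cell factor receptor used in the sort, stood at 380 CPM in wild-type and 354 CPM in knockout marker-low cells, and Ly6a, which encodes Sca-1, had 1695 and 692 UMIs (94.7 CPM over both). Free RNA held 156 CPM of Kit and 126 CPM of Ly6a. No UMI of Kit, Ly6a or Cd34 was found in 79 of 2837 wild-type (2.78%, Clopper-Pearson interval 2.21 to 3.46) and 40 of 1225 knockout cells (3.27%, 2.34 to 4.42). Flt3 was at 439 CPM in marker-low cells, 281 CPM in the stem gate, 374 CPM in the neutrophil gate, 178 CPM in the megakaryocyte-erythroid gate and 661 CPM in the lymphoid gate. Cd34, a progenitor surface glycoprotein, was at 332 CPM against 260 CPM in the stem gate. Slamf1 (CD150), which marks stem cells and megakaryocyte-biased progenitors, was at 4.96 CPM against 13.5 CPM in the stem gate. Marker-low cells therefore lay between the stem gate and the lymphoid gate in Flt3, and below both the stem and the megakaryocyte-erythroid gates in Slamf1.

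Markers of other cells were few, with exceptions that 1 cell could carry. Of 8 T and NK cell genes, Cd3e, Cd3g, Cd8a and Gzma were at 0 in both genotypes, and the summed level of the list was 102 CPM in wild-type and 78.8 CPM in knockout, of which Nkg7 made up 97.7 and 72.6 CPM. The 6 B cell genes summed to 26.3 and 27.4 CPM, the 6 mature neutrophil genes to 13.6 and 10.5 CPM, the 6 monocyte and macrophage genes to 16.6 and 17.0 CPM, the 4 eosinophil genes to 1.43 and 5.18 CPM, and the 6 endothelial and stromal genes to 2.46 and 8.03 CPM. The mast cell and basophil list stood at 26.1 and 18.8 CPM. The dendritic cell list summed to 522 and 482 CPM, of which Flt3 made up 440 and 435 CPM, and Siglech was found once in the knockout and not in the wild-type. A single wild-type cell held 1486 of the 1523 wild-type UMIs of Jchain and Igha, which plasma cells express, and 2 wild-type cells held over 100 globin UMIs each, up to 864 in 1 cell.

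Outside the gate genes, the lists placed the marker-low cells low in division genes. The summed level of 32 mitosis genes was 961 CPM in marker-low cells, 1660 in the stem gate, 2223 in the neutrophil gate, 2385 in the lymphoid gate and 2929 in the megakaryocyte-erythroid gate. Canonical histone genes, which are expressed in S phase, stood at 1688 CPM against 2710 in the stem gate and 5375 in the megakaryocyte-erythroid gate. The 28 DNA replication genes stood at 1228 CPM against 1438 and 2221 CPM in the same gates. All 3 lists were thus lowest in the marker-low cells among the 5 sets compared. Depth was lowest in them too, and its part in the selection of these cells was not tested for the lists.

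Lineage genes that the rule did not use gave an intermediate picture. The 18 lymphoid genes (Il12a, Btla, Mef2c, Runx3 and others) summed to 2643 CPM, above the stem gate at 2240 CPM and below the lymphoid gate at 4020 CPM. The neutrophil gate, at 2614 CPM, was near the marker-low cells. The 16 myeloid genes summed to 932 CPM against 742 CPM in the stem gate and 1364 CPM in the neutrophil gate. This list was highest in the lymphoid gate, at 1424 CPM. The 17 megakaryocyte-erythroid genes stood at 783 CPM, below the stem gate at 1009 CPM and the megakaryocyte-erythroid gate at 1624 CPM. They were above the neutrophil gate at 767 CPM and the lymphoid gate at 570 CPM. The 20 stem genes outside the gate stood at 2729 CPM against 3172 in the stem gate and 1841 in the lymphoid gate. Interferon response genes were at 1205 CPM and ranged from 882 to 1180 CPM in the other gates.

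**Figure D1:**
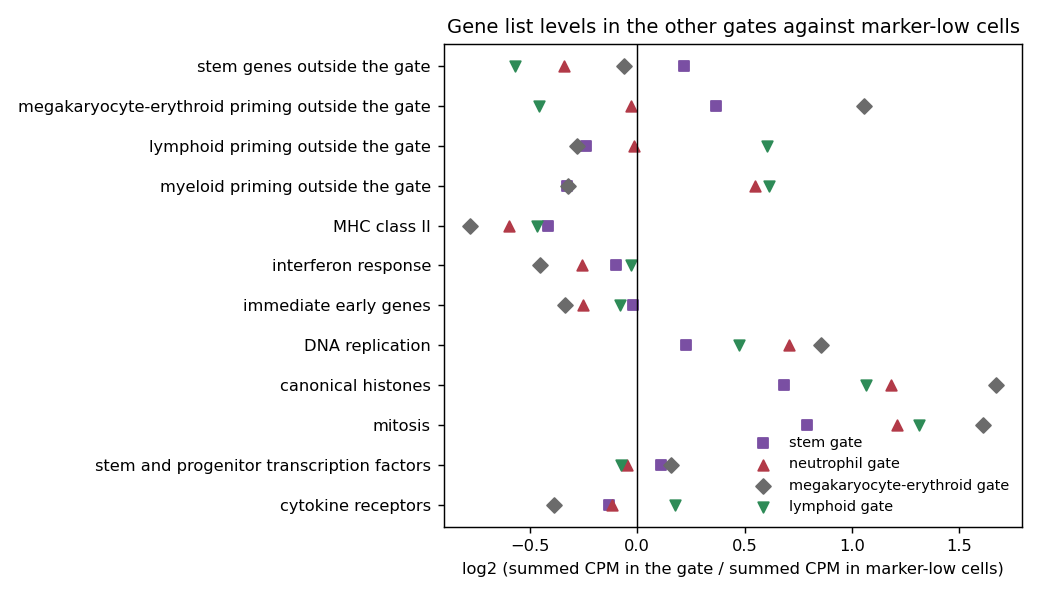
Levels of 12 gene lists in 4 gates relative to marker-low cells. The x axis is the log2 ratio of the summed CPM in a gate to that in marker-low cells, both genotypes together, gate genes left out, and each symbol is 1 gate. Mitosis, histone and DNA replication symbols all lie to the right of 0, and those of MHC class II all lie to the left.

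Single genes that stood highest in marker-low cells against all other cells with 1 hashtag included several of the antigen presentation pathway. Leaving out gate genes, and with at least 500 UMIs in all, the 10 highest were Jchain, Igha, Cd74, 1700003C15Rik, H2-Eb1, Gm32554, Gm8871, Id2, Wfdc17 and H2-Aa. Cd74, the invariant chain of MHC class II, stood at 73.5 CPM against 34.1 CPM in the other cells (log2 ratio 1.11). H2-Eb1, a class II chain, stood at 32.6 against 18.1 CPM, and Id2, a transcriptional inhibitor, at 11.1 against 6.58 CPM. Part of the marker-low UMIs of these genes lay in 33 cells with 10 or more UMIs of class II genes. Without them Cd74 stood at 40.8 CPM in wild-type and 21.6 CPM in knockout marker-low cells. H2-Eb1 stood at 19.4 and 15.5 CPM, and Id2 at 7.60 CPM over both. Such cells were picked by class II UMIs and remain in the values of the other cells, so a class II drop was built in. With them left out of every gate, Cd74, H2-Aa, H2-Ab1 and H2-Eb1 summed to 143 CPM in wild-type marker-low cells. The wild-type stem, neutrophil, megakaryocyte-erythroid and lymphoid gates stood at 131, 91.9, 86.0 and 111 CPM. In knockout, marker-low cells stood at 85.9 CPM and these gates at 99.8, 66.4, 54.0 and 89.9 CPM. Free RNA held 272 CPM of Cd74 and 112 CPM of H2-Eb1, and its part in these levels was not tested. Wfdc17 was the most abundant of the 10 genes at 279 against 167 CPM, with 412 CPM in the lymphoid gate and 109 CPM in the stem gate. Also higher in the lymphoid gate than in marker-low cells were 1700003C15Rik (88.6 against 51.4 CPM), Gm32554 (55.6 against 32.5 CPM) and Gm8871 (20.4 against 11.6 CPM). Jchain and Igha came from the single cell described above.

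The 10 lowest genes were Iglc1, Vpreb3, Ngp, S100a9, S100a8, Igll1, Ly6c2, Camp, F13a1 and Slc25a21. S100a8, a neutrophil calcium-binding protein, stood at 5.79 CPM against 48.5 CPM, with 1562 UMIs in 1 of the other cells and at most 13 in a marker-low cell. Vpreb3 and Igll1, parts of the pre-B cell receptor or its assembly, stood at 0.754 against 7.89 CPM and 0.516 against 4.44 CPM. Most of them are genes of the lineages that the rule excluded, and their low level follows the selection. For Iglc1, an immunoglobulin light chain, 1 of the other cells held 3157 of the 3276 UMIs found outside the set. Single other cells also held a large part for Ngp (343 of 735 UMIs), Camp (284 of 770), S100a9 (1283 of 4164) and S100a8 (1562 of 5322).

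Among themselves the marker-low cells varied most in a few kinds of genes. Variance was set against that of Poisson counts at each cell's depth, a ratio of 1 when cells differ by sampling only. Over 7259 genes with at least 500 UMIs the median ratio was 1.10 and the 95th percentile 1.73. The 12 highest were Igha, Jchain, Hbb-bs, Hist1h2ap, Cd74, Hbb-bt, Hist1h2ae, Gm42418, Malat1, H2-Aa, Hmgb2 and H2-Eb1. Igha dropped from 758 to 0.993 and Jchain from 678 to 0.996 without the top cell, and Hbb-bs remained at 264. Hist1h2ap, a replication-dependent histone, had a ratio of 84.1, and 10% of the cells held 85.0% of its UMIs. Cd74 had a ratio of 41.3, with 89.7% of its UMIs in 10% of the cells, and H2-Aa a ratio of 14.3. Hmgb2, a chromatin protein of cycling cells, had a ratio of 14.0. The set thus held a minority of cells high in S-phase histones and a small group high in class II genes.

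Part of the class II UMIs lay in 33 cells. A cell with 10 or more UMIs of Cd74, H2-Aa, H2-Ab1 and H2-Eb1 was counted, a limit chosen after the values were seen. There were 20 such cells of 2837 in wild-type (0.705%, 0.431 to 1.09) and 13 of 1225 in knockout (1.06%, 0.566 to 1.81), a difference of 0.356 points (Newcombe interval -0.226 to 1.14). These cells held 26.8% of the UMIs of the 4 genes in wild-type and 67.0% in knockout, and the other wild-type cells still stood at 143 CPM of the 4 genes. Free RNA held 272 CPM of Cd74 alone and 775 CPM of the list of 7 class II genes. Its part in the level of the other cells was not tested. Cells with 10 or more UMIs of the 4 genes were not particular to the marker-low set. They made up 1.05% of the wild-type stem gate (55 of 5217), 1.10% of the lymphoid, 1.09% of the megakaryocyte-erythroid and 0.373% of the neutrophil gate, and in the stem gate the knockout difference was -0.504 points (-0.890 to -0.0600). In marker-low cells they also carried other genes of antigen-presenting cells. Irf8, a factor of dendritic cells and monocytes, stood at 613 CPM in them against 15.6 CPM in the other marker-low cells, Id2 at 452 against 7.60 CPM, Ciita, the class II transactivator, at 146 against 4.44 CPM, and the monocyte and macrophage list at 347 against 14.1 CPM. Siglech and Cd79a were at 0. Kit stood at 221 CPM against 374 CPM, and the mitosis list at 377 against 966 CPM.

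Several genes that the rule did not use differed with the number of stem genes per cell. In wild-type, 55 cells (1.94%) had none of the 9 stem genes, 263 (9.27%) had 1, 1052 (37.1%) had 2 and 1467 (51.7%) had 3. Flt3 was at 531, 568, 476 and 393 CPM in cells with 0, 1, 2 and 3 stem genes, and the lymphoid list outside the gate at 3810, 3351, 2787 and 2498 CPM. The stem list outside the gate went the other way, from 1943 to 2274, 2598 and 2835 CPM. Angpt1, the Tie2 ligand made by stem and progenitor cells, stood at 968, 1452, 2045 and 2258 CPM. In knockout, 675 cells (55.1%) had 3 stem genes, which is 3.39 points above wild-type (0.0472 to 6.71). The rule used these genes and cut their number at 3, so this difference is a description only. Knockout cells had the same order for these lists, with 4581, 3329, 2695 and 2232 CPM of lymphoid genes and 1709, 2144, 2612 and 3094 CPM of stem genes. Median depth differed little across these wild-type groups, from 5313 to 5698 UMIs.

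**Figure D2:**
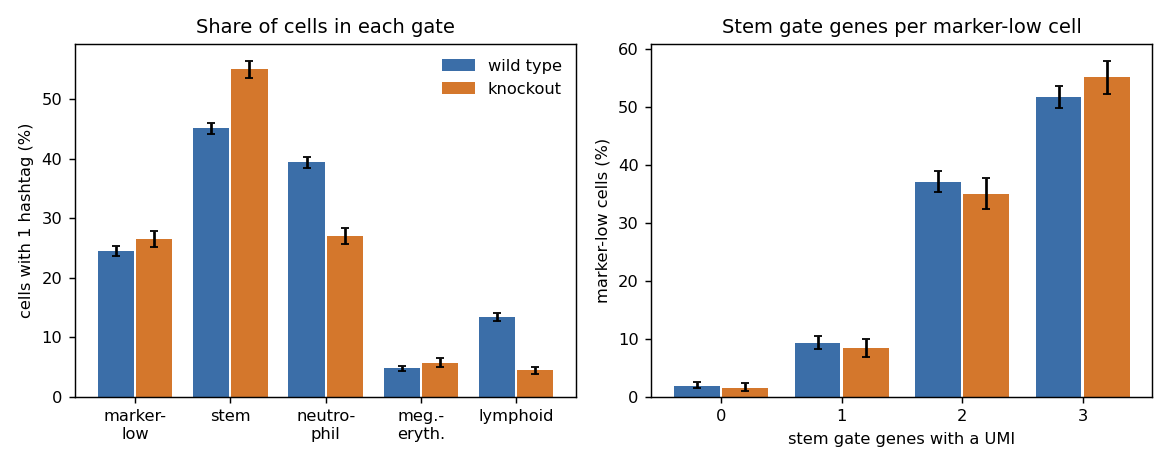
Left, percent of the cells with 1 hashtag that fell in each gate at homeostasis, by genotype. Right, percent of marker-low cells with 0 to 3 stem gate genes. Bars start at 0 and error bars are 95% Clopper-Pearson intervals for counting error. A cell can be in several of the 4 other gates.

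The share of marker-low cells was close between genotypes. It was 24.5% (23.7 to 25.3) of 11579 wild-type and 26.5% (25.2 to 27.8) of 4628 knockout cells. Knockout minus wild-type was 1.97 points (0.487 to 3.47). By contrast the knockout had more cells in the stem gate (55.0% against 45.1%) and fewer in the neutrophil gate (27.0% against 39.3%) and the lymphoid gate (4.43% against 13.4%). The share depends on the hashtag rule and on depth. A rule that 80% of the hashtag UMIs come from 1 tag kept 6973 wild-type and 1025 knockout cells. Of these, 1569 (22.5%) and 173 (16.9%) were marker-low, so that the direction turned. All knockout values given under this rule rest on those 173 cells. Where the gate was applied after each cell was thinned to 2921 UMIs, 60.3% of wild-type and 62.5% of knockout cells met it.

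Marker-low cells without a hashtag numbered 2120. They held 30.4 CPM of Sin3b against 88.0 CPM in wild-type and 23.4 CPM in knockout marker-low cells, and 249 CPM of Agbl4 against 12.4 and 258 CPM. In both genes the cells without a hashtag stood nearer to the knockout. They entered no comparison, and the part they would play in the shares was not tested.

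Sin3b, the deleted gene (chr8:72723285-72758201 in GENCODE M21, GRCm38), was counted 1537 times in wild-type and 181 times in knockout marker-low cells. The log2 ratio of knockout to wild-type was -1.91 (-2.14 to -1.69), and free RNA held 65.4 CPM. It was -1.70 in the stem gate and -2.60 in marker-low cells after 5-FU. The remaining UMIs in the knockout were spread over 164 cells with at most 3 each.

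Over the 11291 genes with at least 100 UMIs, 60 (0.531%) were at least 2-fold higher and 110 (0.974%) at least 2-fold lower in the knockout. The median log2 ratio was -0.0046 and 94.6% of genes lay within 1.5-fold, so most of the transcriptome of these cells was alike in the pools.

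**Figure D3:**
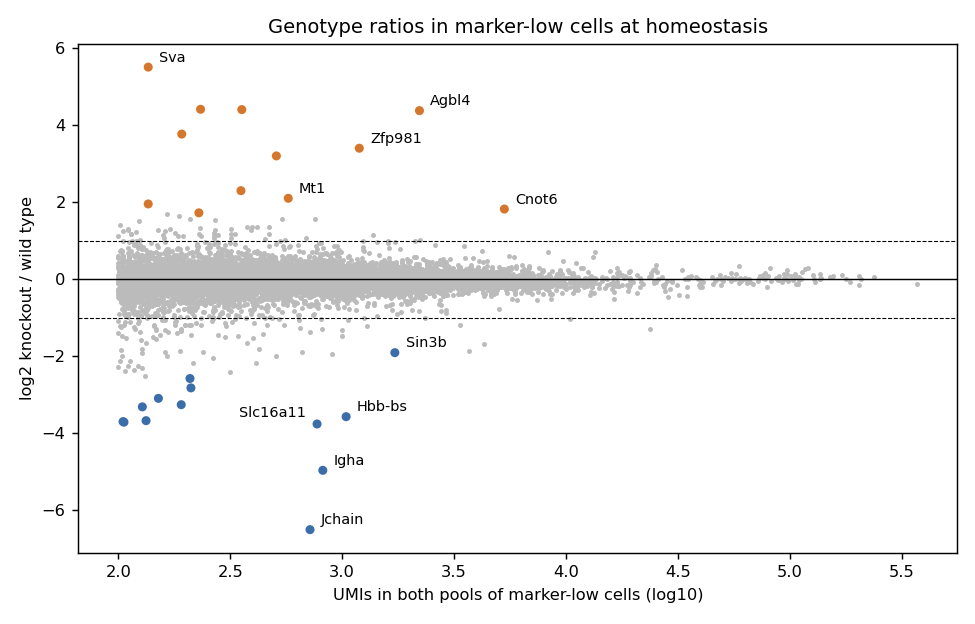
Each point is 1 of the 11291 genes, with the UMIs in both pools of marker-low cells on the x axis (log10) and the log2 ratio of knockout to wild-type on the y axis. Dashed lines mark 2-fold, and coloured points are Sin3b and the 12 genes with the largest differences in each direction.

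The 12 genes with the largest increase in the knockout were Sva, Elavl4, Gm42031, Agbl4, Gm43305, Zfp981, Gm49980, Camk2b, Mt1, Slc44a4, Cnot6 and Plscr2. Sva, which encodes a secreted protein of seminal vesicle, had 6 wild-type and 130 knockout UMIs, in 6 and 119 cells (log2 ratio 5.51, 4.45 to 7.09). Agbl4, a carboxypeptidase that shortens glutamate chains on tubulin, had 217 and 1996 UMIs (4.38, 4.18 to 4.59), in 141 of 2837 and 516 of 1225 cells. Elavl4, a neuronal RNA-binding protein, had 22 and 211 UMIs (4.41, 3.80 to 5.14). Both lie on chromosome 4, at chr4:110397661-111664324 and chr4:110203722-110351909. Of these, Agbl4 was the most abundant in the knockout after Cnot6, a subunit of the CCR4-NOT deadenylase, which had 2067 and 3231 UMIs (1.82, 1.74 to 1.90).

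Mt1, a zinc-binding metallothionein, was at 11.3 CPM in wild-type (198 UMIs) and 48.7 CPM in knockout (376 UMIs) (2.10, 1.85 to 2.36). Free RNA held 561 CPM of Mt1. Its paralog Mt2 had only 26 and 23 UMIs (interval of the log2 ratio 0.125 to 1.87). Mtf1, the metal-responsive factor that activates metallothionein genes, stood at 18.5 and 32.8 CPM (0.83, 0.58 to 1.07), and Slc39a10, a zinc importer, at 44.2 and 30.8 CPM (-0.52, -0.74 to -0.31). Slc39a14, another zinc importer, had 188 and 85 UMIs (0.04, -0.35 to 0.41). Slc44a4 is less secure than its ratio, as single cells held 16 of its 50 wild-type and 15 of its 86 knockout UMIs, and its ratio turned to -1.79 under the stricter hashtag rule.

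The 12 genes with the largest decrease were Jchain, Igha, Slc16a11, 2410018L13Rik, Apob, Slc18a1, Hbb-bs, BC034090, Hba-a1, Hba-a2, 2610507I01Rik and Clec10a. Of them, 5 came from the 3 wild-type cells with plasma cell or globin UMIs described above. Without those cells Jchain had 17 and 3 UMIs (-1.15, -3.74 to 0.46), Igha 20 and 11 (0.34, -0.89 to 1.44), Hbb-bs 94 and 37 (-0.16, -0.76 to 0.39), Hba-a1 19 and 8 (-0.02, -1.47 to 1.19) and Hba-a2 19 and 7 (-0.20, -1.76 to 1.05), and each interval held 0. Hbb-bt, another globin, went the other way, from a ratio of 0.33 with these cells to 1.14 (0.89 to 1.40; 261 and 255 UMIs) without them. The count of genes at least 2-fold lower then was 104.

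The other decreases were spread over many cells. Slc16a11, a monocarboxylate transporter, had 748 UMIs in 491 wild-type cells and 24 in 23 knockout cells (-3.76, -4.44 to -3.20). Clec10a, a C-type lectin, had 195 and 14 UMIs (-2.58, -3.52 to -1.84). Apob, apolipoprotein B, had 102 and 3 UMIs, and Slc18a1, a vesicular monoamine transporter, 129 and 4. Slc16a11 and Clec10a lie near each other, at chr11:70212752-70216417 and chr11:70156197-70170834.

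**Figure D4:**
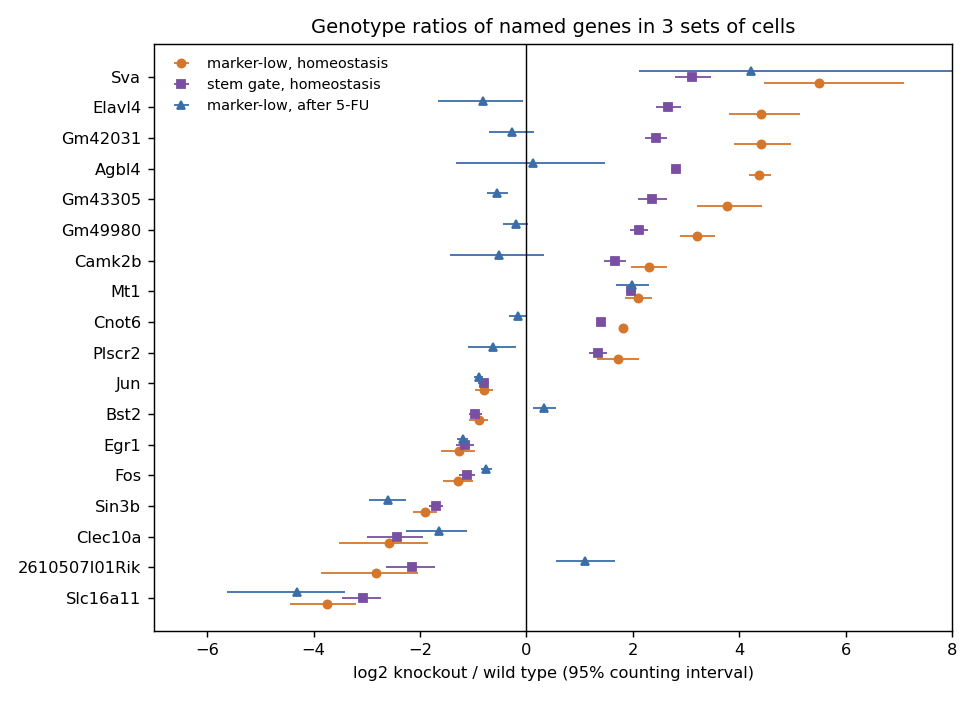
Log2 ratios of knockout to wild-type for 18 genes in marker-low cells at homeostasis (circles), in the stem gate at homeostasis (squares) and in marker-low cells after 5-FU (triangles), with 95% intervals for counting error, clipped at the right edge for Sva. Sva and Mt1 lie to the right of 0 and Fos, Egr1, Jun, Sin3b, Slc16a11 and Clec10a to the left in all 3, while most other increases lie near or below 0 after 5-FU.

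Most of these genes also differed in the stem gate of the same library. Fewer differed after 5-FU, where several had too few UMIs to compare. Zfp981 and Slc18a1 had 0 UMIs there in both genotypes, 2410018L13Rik 1 and 1, Hba-a1 2 and 1, and Hbb-bs 10 and 10. The exceptions in the stem gate were Slc44a4 (0.26, -0.10 to 0.60) and Hba-a2 (-0.34, -1.17 to 0.39), whose intervals held 0. Jchain and Igha rested on single cells outside the set too, which held 411 of 470 and 1151 of 1271 UMIs. In the stem gate Sva had a log2 ratio of 3.11, Agbl4 2.81, Mt1 1.96 and Slc16a11 -3.07. After 5-FU, where 881 wild-type (18.1%) and 456 knockout cells (13.1%) met the rule, Mt1 had 123 and 343 UMIs (1.99, 1.69 to 2.30), Sva 1 and 19 (4.21, 2.11 to 10.1) and Slc16a11 241 and 8 (-4.32, -5.63 to -3.40). Agbl4 had 12 and 9 UMIs there (0.12, -1.33 to 1.47), so that only a few UMIs were left to compare. Cnot6 had 737 and 462 UMIs (-0.16, -0.33 to 0.01), and Gm43305, a noncoding transcript with a ratio of 3.77 at homeostasis, had 660 and 316 (-0.55, -0.75 to -0.36). The mice of the libraries were different animals, which cannot be told apart from the condition. Of the genes with 100 UMIs in both libraries, 15 of 30 at least 2-fold higher at homeostasis and 16 of 22 at least 2-fold lower had the same sign after 5-FU, against 56.1% of all 9062.

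Immediate early genes, which cells switch on within minutes of a stimulus, were lower in the knockout. Of 16 with at least 100 UMIs, 6 were at least 1.5-fold lower and none at least 1.5-fold higher, where 3.21% and 2.21% of all genes tested were. The median log2 ratio was -0.38, 13 were below 0, and in the stem gate and after 5-FU the median was -0.18 and -0.56. Fos stood at 39.5 CPM in wild-type and 16.2 CPM in knockout (-1.28, -1.57 to -1.01). Egr1, a zinc finger factor, stood at 31.3 and 12.9 CPM (-1.27, -1.60 to -0.96). Jun (-0.79), Junb (-0.73), Jund (-0.65) and Fosb (-0.63) make up the AP-1 transcription factor with Fos. Junb was at -0.24 under the 80% hashtag rule, and Jun (-0.36) and Jund (-0.39) were under 1.5-fold where no lineage gene was allowed. Free RNA held 7179 CPM of this list, against 656 CPM in wild-type and 488 CPM in knockout cells, and its part in the difference was not tested.

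To show the promoters of the AP-1 genes, the 250 bases before the RefSeq start of Fos, Fosb and Junb follow, as RefSeq gives them for GRCm38.p6. Capitals mark TGACG, searched on both strands as the core of the cAMP response element. Of 5 AP-1 genes searched these 3 hold it, and are shown for that, as do 17.8% of all 32851 promoters of the same length, and Jun has no match in its window. Jund has none either, but its RefSeq start lies well before the GENCODE start. The windows are chr12:85473640-85473889 (plus strand), chr7:19310046-19310295 (minus) and chr8:84978749-84978998 (minus).
Fos: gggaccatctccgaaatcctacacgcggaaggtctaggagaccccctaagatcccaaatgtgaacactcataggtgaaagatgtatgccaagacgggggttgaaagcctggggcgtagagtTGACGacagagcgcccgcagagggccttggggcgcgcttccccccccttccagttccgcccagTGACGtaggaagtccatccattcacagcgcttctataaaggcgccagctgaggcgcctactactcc
Fosb: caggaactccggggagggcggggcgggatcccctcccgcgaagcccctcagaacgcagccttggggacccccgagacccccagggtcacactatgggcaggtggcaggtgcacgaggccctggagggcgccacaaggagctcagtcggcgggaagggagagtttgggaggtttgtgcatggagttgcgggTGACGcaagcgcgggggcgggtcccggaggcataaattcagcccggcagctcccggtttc
Junb: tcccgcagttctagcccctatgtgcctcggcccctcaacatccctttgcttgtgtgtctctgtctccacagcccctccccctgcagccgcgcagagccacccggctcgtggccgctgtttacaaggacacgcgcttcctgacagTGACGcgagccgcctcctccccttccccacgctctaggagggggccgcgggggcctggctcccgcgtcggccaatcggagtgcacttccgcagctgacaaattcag

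The lists of the cell cycle were near 0 by median, and the share of cells with DNA replication genes was lower in the knockout. The median log2 ratio was -0.03 over 28 DNA replication genes, 0.00 over 21 canonical histone genes and -0.14 over 32 mitosis genes, of which 23 were below 0. Only Ccnb1 (13.2 against 8.41 CPM, log2 ratio -0.64), which drives entry into mitosis, and Hmmr (24.2 against 15.5 CPM, -0.63), a spindle protein, were at least 1.5-fold lower, as were 3.21% of all genes. With under 3 stem genes Hmmr turned to 0.0387 and the mitosis median to 0.31. With each cell thinned to 2921 UMIs, 34.3% of wild-type and 29.2% of knockout cells had UMIs of 3 or more DNA replication genes, a difference of -5.07 points (-8.12 to -1.95). For mitosis genes 386 wild-type and 135 knockout cells met this, a difference of -2.59 points (-4.68 to -0.351). Unthinned, these shares were 60.6% and 57.1%, and 23.3% and 22.6%, where the mitosis difference was -0.687 points (-3.45 to 2.18). The mitosis interval held 0 in 7 of 8 alternatives and that of DNA replication in 2 of 8, so that only the latter stood apart from counting error under most settings. In the stem gate the thinned differences were -10.6 and -11.1 points, and those intervals did not reach the ones of marker-low cells.

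Among regulators of G1, Ccnd3 (cyclin D3) stood at 450 CPM in wild-type and 730 CPM in knockout cells (0.70, 0.65 to 0.75), and its partner kinase Cdk6 at 1229 and 895 CPM (-0.46, -0.50 to -0.42). Cdkn1a (p21) had 93 and 25 UMIs (-0.70, -1.42 to -0.07), but its ratio turned to 0.45 under the 80% hashtag rule. It stood at 5.32 and 3.24 CPM in the cells and at 170 CPM in free RNA. The median of the 12 G1 genes tested was 0.02, and those of the 16 Rb family and DREAM genes and the 20 SIN3 complex genes other than Sin3b were -0.08 and 0.04, with no gene past 1.5-fold in either, where 2.21% of all genes were higher and 3.21% lower, so that a count of 0 in lists of this size is near the background. Sin3a, the paralog of Sin3b, stood at 70.1 and 61.1 CPM (-0.20, -0.35 to -0.04).

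More of the stem genes that the rule did not use were higher than lower in the knockout. Of 20, all with at least 100 UMIs, 7 were at least 1.5-fold higher and none as much lower (2.21% and 3.21% of all genes), with 15 above 0 and a median of 0.26, against 0.64 in the stem gate and -0.27 after 5-FU. The median was 0.02 where cells had to have under 3 stem genes, and it was 0.26 with both genotypes weighted to the same shares of 0 to 3 stem genes. Sult1a1, a sulfotransferase, stood at 10.6 and 27.1 CPM (1.35, 1.06 to 1.65). Aldh1a1, a retinaldehyde dehydrogenase, stood at 4.64 and 11.5 CPM (1.31, 0.86 to 1.77), and Abcb1a, a drug efflux pump, at 4.75 and 9.97 CPM (1.07, 0.60 to 1.53). Free RNA held 25.9 CPM of Sult1a1, 20.1 CPM of Aldh1a1 and 9.06 CPM of Abcb1a. Of the whole list it held 4154 CPM, against 2685 CPM in wild-type and 2830 CPM in knockout cells, and its part was not tested. Among the gate genes, Pdzk1ip1 was higher (25.5 against 41.4 CPM, 0.70) while Gng11 (-0.36) and Mmrn1 (-0.39) were lower. Under the 80% hashtag rule Pdzk1ip1 was level (0.0158) and Gng11 stood at -1.27, and with under 3 stem genes Gng11 turned to 0.0276. Of 105 genes of a published LT-HSC (long-term stem cell) signature, as the study lists it, 21 were at least 1.5-fold higher and 4 lower (2.21% and 3.21% of all genes) with a median of 0.17, from Hoxb2, a homeobox factor, at 1.69 to Ppic, a cyclophilin, at -1.52. The medians of the ST-HSC, MPP2, MPP3 and MPP4 signatures lay between -0.07 and 0.02. Of 116 ST-HSC genes, 2 were at least 1.5-fold higher and 9 lower. These counts were 0 and 4 of 56 MPP2 genes, 3 and 1 of 53 MPP3 genes, and 1 and 6 of 80 MPP4 genes.

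The lymphoid list had a median of -0.07 over 15 genes, with Il12a, a subunit of interleukin-12, the only one past 1.5-fold (74.3 against 47.5 CPM, -0.64). Gate genes chose the cells, so their ratios are a description and lend nothing to the lists. Dntt, the lymphoid polymerase of the gate, stood at 109 and 54.9 CPM (-0.99, -1.15 to -0.84). The megakaryocyte-erythroid list had a median of 0.30 over 13 genes (9 above and 4 below 0), with Tfrc, the transferrin receptor, at -0.46 (-0.76 to -0.17), Itgb3, an integrin of platelets, at 8.18 and 14.6 CPM (0.84) and Gp9, part of the platelet von Willebrand receptor, at 7.78 and 11.9 CPM (0.62). Pf4, of the gate, stood at 19.9 and 37.0 CPM (0.89, 0.66 to 1.12; 0.23 under the 80% hashtag rule) and Gata1 at 5.78 and 2.33 CPM (-1.28, -2.12 to -0.58). The myeloid list had a median of 0.05 over 10 genes, with the inhibitory lectin Clec12a at 9.79 and 18.8 CPM (0.94, 0.61 to 1.27) and Plac8, a gene of myeloid progenitors, at 715 and 498 CPM (-0.52, -0.57 to -0.47). The list as a sum stood at 999 CPM in wild-type and 780 CPM in knockout cells.

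**Figure D5:**
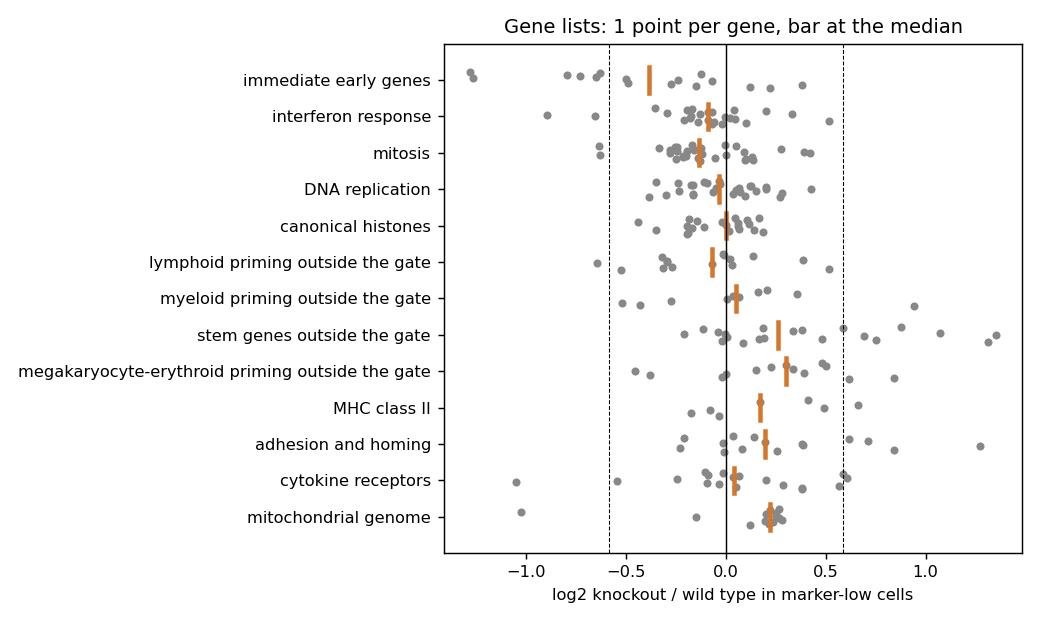
Log2 ratio of knockout to wild-type in marker-low cells for each gene of 13 lists with at least 100 UMIs (grey points) and the median of each list (bars). Dashed lines mark 1.5-fold. Most immediate early genes lie left of 0 and most stem genes right of it, and mt-Nd3 stands alone at the left of the mitochondrial list.

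Surface and signalling genes held single differences. Cd48, lost on stem cells and present on progenitors, stood at 87.2 and 55.5 CPM (-0.65, -0.81 to -0.49), and Slamf1 at 3.95 and 7.25 CPM (0.88, 0.34 to 1.41). Flt3 was level at 440 and 435 CPM (-0.02, -0.08 to 0.04). The 12 surface genes had a median of -0.03. Of 18 cytokine receptors (median 0.04), Il18r1 stood at 50.0 and 24.1 CPM (-1.05, -1.29 to -0.82) and Il6ra at 24.3 and 36.9 CPM (0.61). Socs2, a feedback inhibitor of cytokine signalling, stood at 5.67 and 12.4 CPM (1.13, 0.71 to 1.55) and Cish at 12.0 and 18.9 CPM (0.65), with a median of 0.10 over 8 SOCS genes, of which Socs1, Socs3, Socs4, Socs5, Socs6 and Socs7 lay between -0.30 (Socs3) and 0.21 (Socs5). Of 15 adhesion genes (median 0.20), Itgb2 (0.71) and Itgal (0.62), the chains of the LFA-1 integrin, were both higher. Jam3 (1.27) was higher too, with 22 of its 78 knockout UMIs in 1 cell, and its ratio turned to -0.0159 under the 80% hashtag rule and to -0.37 where no lineage gene was allowed. Slamf1 (0.12) and Itgb2 (0.25) lost most of their difference in that last setting, and Socs2 stood at 0.52 with under 3 stem genes.

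The class II ratios depended on few cells. Over all marker-low cells H2-Eb1 stood at 27.7 and 43.8 CPM (0.66, 0.45 to 0.86), Cd74 at 65.4 and 91.8 CPM (0.49, 0.35 to 0.63) and H2-Aa at 38.2 and 50.7 CPM (0.41, 0.23 to 0.59), with a median of 0.17 over the 7 genes. H2-Ab1 (0.17), H2-DMa (-0.08), H2-DMb1 (-0.18) and Ciita (-0.04) were nearer to 0. Under the 80% hashtag rule H2-Eb1 stood at 2.55 and Cd74 at 2.45, at the stricter positive quantile at 1.29 and 1.13, and with under 5 stem genes at 0.34 and 0.14, so that the size was not fixed. Without the 33 class II cells H2-Eb1 stood at 19.4 and 15.5 CPM (-0.32, -0.64 to -0.02), Cd74 at 40.8 and 21.6 CPM (-0.91, -1.17 to -0.67) and H2-Aa at 29.3 and 15.2 CPM (-0.94, -1.25 to -0.65). Those cells were picked by their UMIs of these same genes and held a larger part of the knockout UMIs, so the values without them describe the remainder and give no direction for the genotype. In the stem gate the list median was -0.44.

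Most of the remaining lists were close to level by median, and the mitochondrial list was the furthest from 0 of those given here. Interferon response genes had a median of -0.09 over 25 genes, with 18 below 0. Of these genes 2 were at least 1.5-fold lower and none higher, where 3.21% and 2.21% of all genes were. The 2 were Bst2 (tetherin) at 81.1 and 43.6 CPM (-0.89, -1.07 to -0.72) and Ifi27l2a at 31.5 and 19.9 CPM (-0.66, -0.93 to -0.40). Ifi27l2a turned to 0.19 under the 80% hashtag rule and to 0.0543 with no lineage gene. MHC class I genes had a median of 0.04, glycolysis 0.00, NF-kB genes 0.08, p53 targets -0.06, transcription factors 0.08 and cytoplasmic ribosomal protein genes 0.02. Nkx2-3, a homeobox factor, stood at 93.6 and 53.8 CPM (-0.80, -0.96 to -0.64), and Nfkbiz at 46.4 and 30.3 CPM (-0.61), or -0.23 under the 80% hashtag rule. The 13 genes of the mitochondrial genome had a median of 0.22 with 11 above 0, and mt-Nd3, a subunit of complex I, stood apart at 491 and 241 CPM (-1.03, -1.10 to -0.96). It was as low in the stem gate (-1.03) and level after 5-FU (0.09, -0.06 to 0.24).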

How the data were processed

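The deposited files hold raw UMI counts, which the authors obtained with Cell Ranger (version 4 at homeostasis and 6.0.1 after 5-FU, per the file headers). The submitters' processing notes name the build mm9. Coordinates here were looked up by gene ID in GENCODE M21 (GRCm38), and the build of the counts was not otherwise given in the sources used here. The homeostasis matrix was unfiltered. Its rows were named by the feature list deposited for 5-FU, as the row order matched (correlation of log counts 0.919, and 0.393 with a shift of 1 row). Hashtags were classified with HTODemux in Seurat 5.3.0 at a positive quantile of 0.99. Cells with both tags were removed, and doublets within a genotype remain. UMIs were summed per genotype. CPM is per 1000000 UMIs of the pool, and ratios are log2 with 0.5 counts added and an exact conditional binomial interval. With 1 pool per genotype no p-value was computed. Cells were also thinned to 2921 UMIs. Calculations used Python 3 with numpy and scipy. Intervals were tested on simulated Poisson and binomial counts, the sampling that they assume. That test cannot show how they hold for genes that vary more between cells, such as Cd74 with a variance ratio of 41.3.

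The cells and gene lists were chosen with earlier results of these data known. Genes were named by rule: Sin3b, gate and surface genes, the 12 largest differences in each direction with at least 100 UMIs and an interval without 0 (gate genes, Y-linked genes and Xist left out), the 10 highest and 10 lowest against the other cells, the 12 most variable, and up to 4 members with the largest ratios in each list. Some genes that the rule names are not reported here. Alternatives changed the hashtag rule, quality filters, gate limits, scaling, cell weights, makeup and the count minimum.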

Additional observations from a re-analysis of the deposited data

Results flagged for a closer look

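Several knockout to wild-type ratios had opposite signs at homeostasis and after 5-FU, with intervals on opposite sides of 0. The differences themselves were not tested, and each condition is 1 library from other mice. Gm43305 went from a log2 ratio of 3.77 at homeostasis to -0.55 after 5-FU, Plscr2 from 1.72 to -0.63, Aldh1a1 from 1.31 to -0.91, Itgb3 from 0.84 to -1.10 and H2-Eb1 from 0.66 to -0.60. The noncoding 2610507I01Rik went from -2.82 to 1.10, Bst2 from -0.89 to 0.34, Ccnb1 from -0.64 to 0.85 and Ifi27l2a from -0.66 to 0.61. At homeostasis H2-Eb1 stood at -0.32 without the 33 class II cells, which were picked by UMIs of such genes. Ifi27l2a stood at 0.19 there under the 80% hashtag rule and at 0.0543 with no lineage gene. The knockout minus wild-type difference in the share of marker-low cells was 1.97 points at homeostasis and -5.04 points after 5-FU. At homeostasis it was -5.62 points under the 80% hashtag rule. Marker-low cells had median depths of 5647 (wild-type) and 5804 UMIs (knockout) at homeostasis, and 6841 and 8713 UMIs after 5-FU. The share depends on depth, and the part of depth in this contrast was not tested.

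Marker-low cells without a hashtag, which no comparison used, held more of some genes than wild-type cells did. Agbl4 stood at 249 CPM in them against 12.4 CPM in wild-type marker-low cells, Elavl4 at 28.5 against 1.26 CPM and Zfp981 at 131 against 12.0 CPM.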

How the results depend on the processing

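Of the values recomputed under the alternatives, 734 values of single genes stayed within their counting interval, and Sin3b stayed between -1.97 and -1.78. For summary values, 325 stayed within their interval or, for counts, within 1.5 times. Of these, 274 were list medians, whose interval comes from the spread over the genes of the list and not from counting error. Such an interval can be wide, and the stem list median of 0.02 with under 3 stem genes lay within it. Another 123 values of single genes moved outside their interval without turning a difference whose interval excluded 0, 38 of them under the 80% hashtag rule (such as Pdzk1ip1 to 0.0158, Pf4 to 0.23, Gng11 to -1.27, Il12a to -1.40 and Cd74 to 2.45), 36 with no lineage gene and 25 with under 3 stem genes. The summary values that moved and the differences that turned follow, and the cause was not tested except where cells or genes were left out by construction. The 80% hashtag rule left 1569 wild-type and 173 knockout marker-low cells, and a difference in share of -5.62 points. Under it the list medians were 0.12 for lymphoid, -0.22 for DNA replication, 2.09 for MHC class II, 0.39 for mitochondrial and -0.11 for ribosomal genes. Slc44a4 (-1.79), Cdkn1a (0.45), Ifi27l2a (0.19) and Jam3 (-0.0159) turned. At a stricter positive quantile the mitochondrial and ribosomal medians were 0.27 and 0.00642. Quality filters turned Igha (0.39) and H2-Ab1 (-0.0302). With under 3 stem genes the share difference was 0.0524 points, 68 genes were at least 2-fold lower, the medians were 0.18 for histones, 0.31 for mitosis, 0.69 for MHC class II and 0.00355 for ribosomal genes, and Gng11 (0.0276) and Hmmr (0.0387) turned. With under 5 stem genes the share difference was 5.43 points, the mitosis median -0.24 and H2-Ab1 -0.11. With no lineage gene, 251 wild-type and 139 knockout cells remained, 19 genes were higher and 15 lower, the medians were -0.13 for surface, -0.58 for myeloid, 0.49 for histone, 0.26 for Rb and DREAM, -0.00468 for interferon, 1.66 for MHC class II, -0.0370 for transcription factor, -0.17 for adhesion and -0.0266 for ribosomal genes, and Jchain (0.0741), Igha (1.55), Hba-a2 (0.81), Ifi27l2a (0.0543) and Jam3 (-0.37) turned. With no count minimum 2185 genes were at least 2-fold higher and 1929 lower, and at 500 UMIs 11 and 24.

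Chosen after seeing the data, leaving out the plasma cell and globin cells gave Igha 0.34, and leaving out the class II cells gave an MHC class II median of -0.50, with H2-Aa -0.94, H2-Ab1 -0.67, H2-Eb1 -0.32 and Cd74 -0.91. No paired analysis was possible because each genotype is 1 pool. Differences between mice cannot be told apart from genotype.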
